A study of Mus musculus with 4 samples.

Results

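Lateral septum (LS) neurons that carried the transcripts of both somatostatin (Sst) and neurotensin (Nts) were examined in single-nucleus RNA sequencing data of the mouse LS. They were chosen on their own counts. A nucleus was taken when it had 200 to 6000 detected genes, less than 2% mitochondrial transcripts and at least 2000 unique molecular identifiers (UMIs, each standing for 1 captured RNA molecule), and when it held at least 2 UMIs of Sst, 1 of Nts, 1 of the LS marker Trpc4 and 1 of Gad1 or Gad2, fewer than 2 UMIs of Lhx6 and fewer than 3 of St18. The rule took 476 of 58372 barcodes, or 476 of the 48940 that met the limits on genes, UMIs and mitochondrial transcripts. Levels of these 7 genes chose the nuclei, so they are given as a description without a test.

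LS tissues of 3 male mice, labelled as 6 to 8 weeks old, were pooled in each of 4 libraries. The study differs from the labels and gives 8 weeks as the age at purchase. C57J 1 and C57J 2 came from C57BL/6JNifdc mice, nude from BALB/c nude mice and BALB/c from BALB/c mice. Foxn1 is knocked out in nude mice, which lack T cells and descend from BALB/c, so those 2 libraries have the background in common, and neither genotype has a replicate library. No group received a treatment. C57J 1 belonged to batch 1 of the labels and the other libraries to batch 2. The libraries held 102939576, 72912922, 82169638 and 125998527 UMIs, and wherever 4 values stand together they follow this order of libraries (C57J 1 first, then C57J 2, nude, BALB/c). The libraries shared 29 to 63 barcodes pairwise, at most 0.478% of the smaller library. Tissue was frozen, and nuclei were isolated in a buffer that contained the transcription inhibitor Actinomycin D, so the counts describe nuclear RNA.

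Neurons of the LS are for the most part GABAergic projection neurons, and many of them add a neuropeptide to GABA. Somatostatin acts through receptors that couple to inhibitory G proteins and is generally inhibitory, whereas neurotensin acts through Ntsr1 and Ntsr2 and is known from septal projections that bear on feeding, reward and stress. Both peptides are cut from larger precursors and stored in dense-core vesicles, and transcription of both genes is known to respond to cAMP signaling. A stretch before the RefSeq start of each of the 2 genes is therefore shown first. Sequences are those of RefSeq on GRCm38.p6, capitals mark the motif, and each line holds 30 bases in the direction of transcription. The gene Sst lies on chromosome 16 (23889573 to 23890958, minus strand) and Nts on chromosome 10 (102481756 to 102490486, minus strand) in GENCODE vM21. GENCODE places the starts of both genes farther upstream than RefSeq does, so that by GENCODE the Sst stretch and the Nts motif lie inside the genes.

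Sst, chr16:23890874-23890903, minus strand: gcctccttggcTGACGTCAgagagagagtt

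Nts, chr10:102490467-102490496, minus strand: ctgtgtagccaTGACATCAtcctcctgctc

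The 250 bases before the RefSeq start of every gene were searched on both strands for the cAMP response element TGACGTCA and for TGACNTCA, which includes it. The motif began at base -48 of Sst and at base -67 of Nts, where Nts differed from the full palindrome in the base written as N. Of 32851 promoters in the table, 508 (1.55%) held TGACGTCA and 2460 (7.49%) held TGACNTCA, so these letters are uncommon and not particular to Sst and Nts. A match is a description of the sequence alone.

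The members numbered 145, 57, 76 and 198 nuclei. Per nucleus, Sst reached from the lowest allowed value of 2 UMIs to 15, 10, 10 and 28, with medians of 3, 2, 2.5 and 3. Nts reached from 1 UMI to 38, 17, 36 and 30, with medians of 2, 2, 2 and 3. Most members therefore sat close to the limits, and a few held many copies of either peptide. Summed over the members of a library, expression was scaled to CPM (UMIs of a gene divided by all UMIs of the set, times 1000000), with Sst at 313, 288, 313 and 285 CPM and Nts at 334, 277, 336 and 317 CPM. Just inside the limits were 190 members with exactly 2 Sst UMIs and 186 with exactly 1 Nts UMI, and just outside were 721 nuclei with 1 Sst UMI and 1019 with no Nts UMI that met every other condition. The limits on Trpc4, on Gad1 and Gad2, on Lhx6 and on St18 left out 20, 3, 3 and 26 further nuclei.

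For comparison, an LS gate was set that used every condition except those on Sst and Nts. It held 28325 nuclei, and within it 19577 had neither peptide (neither). Another 1019 had at least 2 Sst UMIs and no Nts (Sst-only), and 2654 had at least 1 Nts UMI and no Sst (Nts-only). The members were deeper than the gate as a whole. Their median was 9876, 8824, 8855 and 16502.5 UMIs, against 8048.5, 6687, 6553 and 12397 UMIs in the LS gate. A deeper nucleus passes a rule on UMIs more easily, so depth is given with each share.

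Markers that the rule did not use were read next, to set the nuclei against their label. Dgkg, a diacylglycerol kinase that marks the LS, reached 1306, 1425, 1463 and 1422 CPM in the members and 716, 751, 802 and 722 CPM in neither nuclei (log2 fold change 0.97 ± 0.07). Of the other LS markers, Zic4 (-0.80) and Zic2 (-0.59) were lower than in neither nuclei, while Homer2 (-0.21), Ptpn3 (0.16), Zic1 (-0.29) and Prdm16 (0.00) were not called. Slc32a1, the vesicular GABA transporter, was at 56.1, 49.4, 49.6 and 72.3 CPM in the members and 64.7, 52.1, 55.7 and 70.7 CPM in neither nuclei. Lhx6, which marks interneurons from the medial ganglionic eminence and many cortical Sst cells, was held down by the rule, but the other genes of that list were not. Nxph1 was at 287, 418, 441 and 291 CPM in the members and 1253, 1286, 1427 and 1405 CPM in neither nuclei (-1.88 ± 0.09), and Satb1 (-1.39), Elfn1 (-0.74), Sox6 (-0.73) and Nkx2-1 (-2.45) were lower too, with Npy the 1 gene of the list that was higher. With nuclei thinned to 6000 UMIs each and chosen anew, which left 64, 22, 33 and 80 members (named below as at 6000 UMIs), Nxph1 alone of 7 genes tested was called, and without nude Zic2 was not.

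Markers of other cells were at or below the level of neither nuclei for most lists. The glutamatergic list summed to 8.82, 10.6, 16.5 and 3.34 CPM against 15.0, 12.7, 15.5 and 20.0 CPM in neither nuclei, with Neurod6 at 0, and its most abundant gene was Slc17a6. The medial septal and cholinergic list, led by Elavl2, summed to 68.1, 38.8, 119 and 108 CPM against 156, 160.0, 196 and 236 CPM. Astrocyte genes summed to 631, 265, 301 and 305 CPM, most of it Slc1a2, against 789, 479, 576 and 649 CPM, and oligodendrocyte genes to 420.3, 304, 269 and 245 CPM against 474, 456, 318 and 296 CPM. The striatal list, led by Drd2, summed to 241, 187, 159 and 143 CPM against 295, 190.1, 149.8 and 169 CPM. Of its 8 genes, 1 (Drd2) was called higher than in neither nuclei and 3 were lower (4.2% and 5.64% over all genes tested). The neuroblast list, led by Dcx, summed to 298, 258, 199 and 179.8 CPM against 257, 249, 212 and 201 CPM. Microglia genes summed to 23.3, 23.0, 34.5 and 29.8 CPM against 33.3, 42.6, 32.2 and 33.5 CPM, led by Cx3cr1, and oligodendrocyte precursor genes to 47.3, 37.1, 42.7 and 53.5 CPM against 53.0, 37.5, 45.9 and 51.0 CPM, led by Vcan. In the vascular and ependymal list Cldn5 and Fam216b were at 0 in all members. Predicted doublets made up 12.4%, 7.02%, 13.2% and 11.6% of the members and 13.6%, 11.3%, 11.8% and 10.0% of all scored nuclei.

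The first question was how often the 2 peptides fell together in nuclei. Since their UMIs chose the members, the shares are a description without a test. Among LS gate nuclei without Sst, 13.4%, 9.99%, 10.2% and 14.9% held at least 1 Nts UMI. Among those with 1 Sst UMI the share was 15.5%, 14.8%, 13.0% and 20.2%. At 2 or more Sst UMIs it was 32.6%, 25.8%, 24.6% and 38.1%, higher than at 0 in each of the 4 libraries. Intervals given with shares are exact (Clopper-Pearson) 95% intervals and cover counting error only. The larger step lay between 1 and 2 Sst UMIs. At 5 or more Sst UMIs 60.0%, 55.6%, 45.0% and 60.0% of 50, 9, 20 and 110 nuclei held Nts.

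Depth alone raises both counts, so nuclei with at least 6000 UMIs were thinned to 6000 UMIs each. Nts was then found in 10.4%, 8.85%, 9.25% and 10.3% of nuclei without Sst and in 30.05%, 27.8%, 24.4% and 36.7% of nuclei with 2 or more Sst UMIs. At this depth too the share was higher at 2 or more Sst UMIs than without Sst in each library. The part of depth in the shares was not tested. The class of 5 or more Sst UMIs was then small, with Nts in 61.5%, 50%, 0 and 71.4% of 13, 4, 7 and 21 nuclei, and in nude the higher share of that class was not kept.

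**Figure D1:**
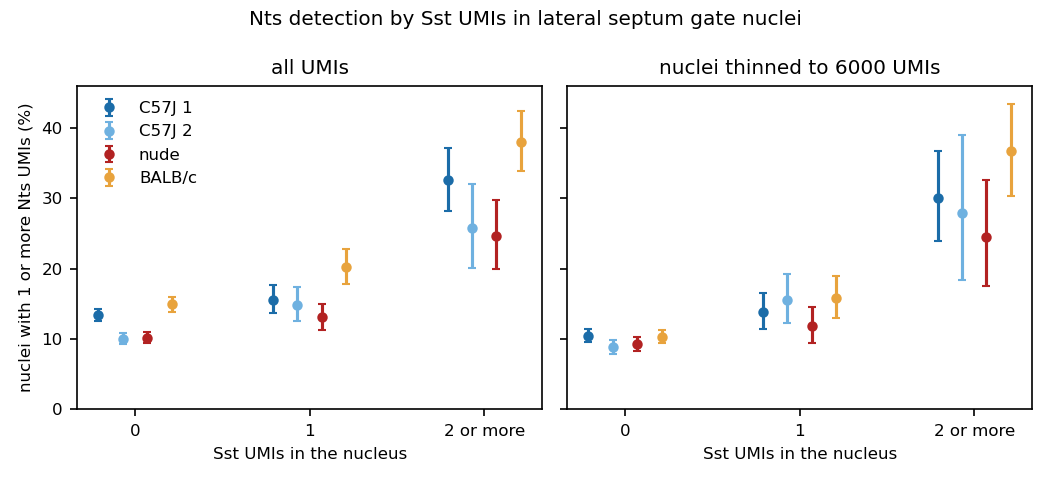
Share of LS gate nuclei with at least 1 Nts UMI (%, vertical axis) by the number of Sst UMIs in the nucleus, in all nuclei (left) and after thinning to 6000 UMIs (right). Points are the 4 libraries and bars are exact 95% binomial intervals. Of the classes with 0, 1 and 2 or more Sst UMIs, the last has the highest share in every library (24.6% to 38.1% before thinning).

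Free RNA in the droplets also gives UMIs. It was measured in oligodendrocyte nuclei (Mog and Mag present, no Gad1, Gad2, Slc17a6 or Slc17a7), which should lack both peptides. This choice leaves out nuclei that took up free RNA of these neuronal genes, so the background may be read too low, which was not tested. The oligodendrocyte nuclei numbered 184, 238, 86 and 446, with median depths of 2918.5, 2695, 2567.5 and 3876 UMIs. At 2000 UMIs per nucleus, 9.78%, 5.88%, 9.30% and 9.19% of them held a Sst UMI, against 6.96%, 6.04%, 7.76% and 6.47% of LS gate nuclei. A single Sst UMI was therefore at background. At their full depth, which was below that of the members, 0, 1, 0 and 8 oligodendrocyte nuclei (0, 0.420%, 0 and 1.79%) held 2 or more Sst UMIs, and at 2000 UMIs none did. At least 1 Nts UMI was held at 2000 UMIs by 7.61%, 4.20%, 4.65% and 6.28% of oligodendrocyte nuclei and by 4.98%, 3.95%, 4.38% and 5.04% of LS gate nuclei, so a single Nts UMI was at background too. Since 186 members were taken with a single Nts UMI, some of them may owe it to free RNA. The Nts-only set likewise asked for 1 Nts UMI. In the whole LS gate, 14.8%, 11.2%, 11.2% and 17.8% of nuclei held at least 1 Nts UMI. At least 2 were held by 4.07%, 2.84%, 2.50% and 6.57%. The part of free RNA in the Nts-only set was not tested. A stricter limit of 2 Nts UMIs was run as an alternative for the members, while the Nts-only set kept its limit of 1.

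Members formed a small fraction of the LS gate, and it was highest in BALB/c, whose nuclei were the deepest. It was 1.86% (95% interval 1.57 to 2.19), 0.883% (0.670 to 1.14), 0.940% (0.741 to 1.18) and 3.30% (2.86 to 3.79). The mean was 1.37% over the C57J libraries and 2.12% over nude and BALB/c. The groups overlapped, and an exact two-sided permutation test gave p = 0.667, where 2 libraries against 2 cannot go below 0.333. Thinned to 6000 UMIs the share was 1.17%, 0.596%, 0.733% and 1.57%, with BALB/c and C57J 1 still the highest. In the LS gate as a whole, whose nuclei were not chosen for peptides, Sst was at 38.5, 31.4, 37.2 and 38.0 CPM and Nts at 30.2, 24.1, 25.4 and 34.2 CPM. The change from C57J to the BALB/c background was a log2 fold change of 0.11 ± 0.13 for Sst (adjusted p = 0.781) and 0.14 ± 0.18 for Nts (adjusted p = 0.816, edgeR quasi-likelihood test), neither of which was called.

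Next, UMIs were summed per library over the members and over each comparison set, and the 4 pairs of sums were compared with edgeR with the library as a block. Calls needed an adjusted p (Benjamini-Hochberg, over all genes tested) under 0.05 together with a log2 fold change beyond 0.5 in either direction. Against neither nuclei 1640 of 16667 genes tested (9.84%) were called, 700 higher and 940 lower in the members. Against Sst-only nuclei 563 of 10902 (5.16%) were called, 295 higher and 268 lower, and against Nts-only nuclei 989 of 12851 (7.7%), 460 higher and 529 lower (4.12%). The comparison sets differ in size and in the number of genes tested, so these counts do not rank the sets. In all 3 comparisons, which share the members, 243 genes were higher and 193 were lower. The median log2 fold change over all genes tested was -0.04, -5.89e-05 and -0.01, so directions are relative to a centre near 0.

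The clearest group among the genes higher in the members was that of the immediate early genes, which neurons transcribe within minutes of activity or of other strong stimuli. Of 12 such genes, 11 were higher in the members than in neither nuclei, where 4.2% of all genes tested were called higher. All 11 genes tested were also higher than in Sst-only nuclei (background 2.71%), and 11 of 12 were higher than in Nts-only nuclei (3.58%). None was lower. The median log2 fold change of the list was 2.05, 1.04 and 1.57 in the 3 comparisons.

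Fosb, a subunit of the AP-1 transcription factor, was at 32.1, 56.5, 35.9 and 33.4 CPM in the members, 6.06, 5.35, 7.78 and 19.1 CPM in Sst-only nuclei, 3.28, 8.08, 7.53 and 4.81 CPM in Nts-only nuclei and 2.72, 2.92, 0.971 and 4.98 CPM in neither nuclei. The members were the highest of the 4 sets in every library, and the log2 fold change against neither nuclei was 3.75 ± 0.24 (SE, adjusted p = 5.64e-17), or 13.5-fold. Fos itself was at 55.5, 84.7, 23.4 and 34.9 CPM against 7.17, 5.89, 5.28 and 9.35 CPM (2.75 ± 0.19), with the C57J libraries above nude and BALB/c in the members only. Nr4a2, a nuclear receptor induced by activity, was at 31.5, 51.2, 17.9 and 3.65 CPM against 2.86, 2.83, 2.04 and 1.82 CPM (3.12 ± 0.30). Its level in the BALB/c members stood far below those of the other 3 libraries. Nr4a3 was at 86.3, 53.0, 109 and 27.6 CPM against 11.7, 6.10, 9.34 and 11.1 CPM (2.70 ± 0.19), and here too BALB/c was the lowest of the 4, below the Sst-only nuclei of that library (25.9, 19.9, 19.9 and 40.6 CPM).

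The remaining genes of the list moved less. Log2 fold changes against neither nuclei were 2.15 for Egr3, 2.09 for Arc, a cytoskeletal protein of the synapse, 2.02 for Junb, 1.99 for Npas4, 1.26 for Egr1, 1.26 for Nr4a1 and 0.99 for the scaffold gene Homer1. Against Sst-only nuclei they ran from 0.72 for Homer1 to 1.94 for Nr4a2. Bdnf, at 3.15, 5.30, 0 and 4.86 CPM in the members and 3.80, 4.18, 4.98 and 5.61 CPM in neither nuclei, was the gene not called. Summed over the list, members held 1374, 1151, 910.1 and 834 CPM, Sst-only nuclei 601, 519, 528 and 623 CPM, Nts-only nuclei 544, 478, 428 and 473 CPM and neither nuclei 439, 338, 359 and 436 CPM. Homer1 was the most abundant gene of the sum. With comparison nuclei matched to the members on UMIs, 11 of 12, 10 of 10 and 11 of 11 genes tested were higher than in neither, Sst-only and Nts-only nuclei. Against Sst-only nuclei the count was 6 of 10 when nuclei were thinned to 6000 UMIs and 0 of 7 when both sets had to hold 5 Sst UMIs, which left 110 members.

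**Figure D2:**
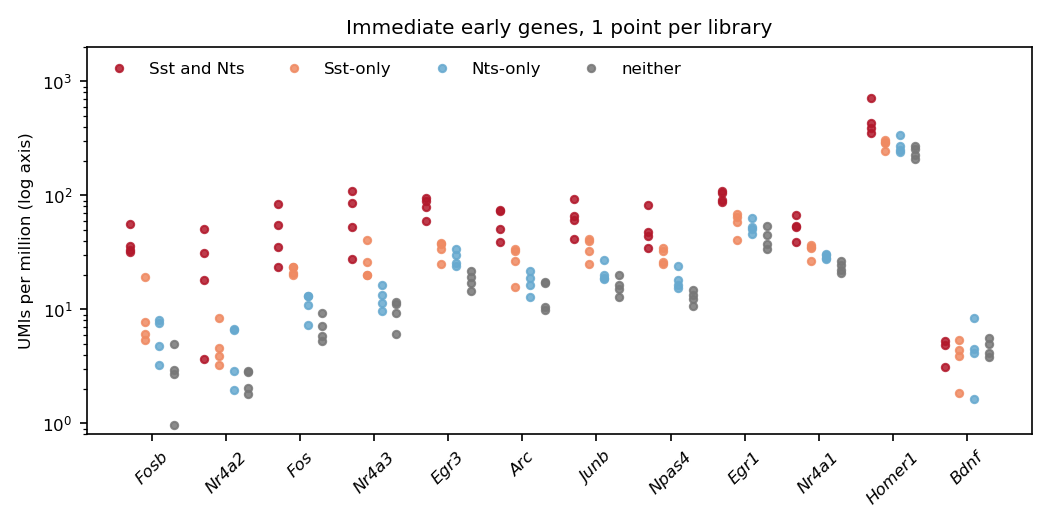
Levels of the 12 immediate early genes in CPM (logarithmic vertical axis) in members (Sst and Nts), Sst-only, Nts-only and neither nuclei, with 1 point per library. A value of 0 (Bdnf in the members of nude) is not drawn. For Fosb the members lie between 32.1 and 56.5 and the neither nuclei between 0.971 and 4.98.

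The tenth of members with the most immediate early UMIs held 35.9%, 32.8%, 41.5% and 29.96% of these UMIs, against 37.4%, 38.3%, 38.1% and 38.9% in neither nuclei. At 2000 UMIs per nucleus, members without any immediate early UMI made up 22.8%, 21.1%, 26.3% and 30.3%, while 48.7%, 57.2%, 54.3% and 52.5% of neither nuclei had none. Among oligodendrocyte nuclei at the same depth 62.0%, 66.4%, 60.5% and 68.4% had none, so a single such UMI was also found outside neurons. Nuclei without any were less frequent among members than in both other sets in each library.

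Within the members the list was also summed by Nts UMIs and by Sst UMIs, without a test. Members with 1 Nts UMI held 843, 762, 460 and 653 CPM of the list, those with 2 or more held 1756, 1530, 1251 and 909 CPM, and those with 5 or more, 32, 8, 14 and 72 nuclei, held 2400, 2041, 2255 and 1099 CPM. The order was the same in all 4 libraries. By Sst the values were 1359, 1354, 566 and 757 CPM at 2 UMIs, 1349, 917, 1243 and 782 CPM at 3 or 4, and 1440, 955, 1179 and 948 CPM at 5 or more, with no order shared by the libraries. Since Sst and Nts UMIs chose the members, this is a description. The part of single Nts UMIs from free RNA in the lowest class was not tested. Nuclei just outside the rule, with Nts but only 1 Sst UMI, held 754, 584, 582 and 608 CPM.

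**Figure D3:**
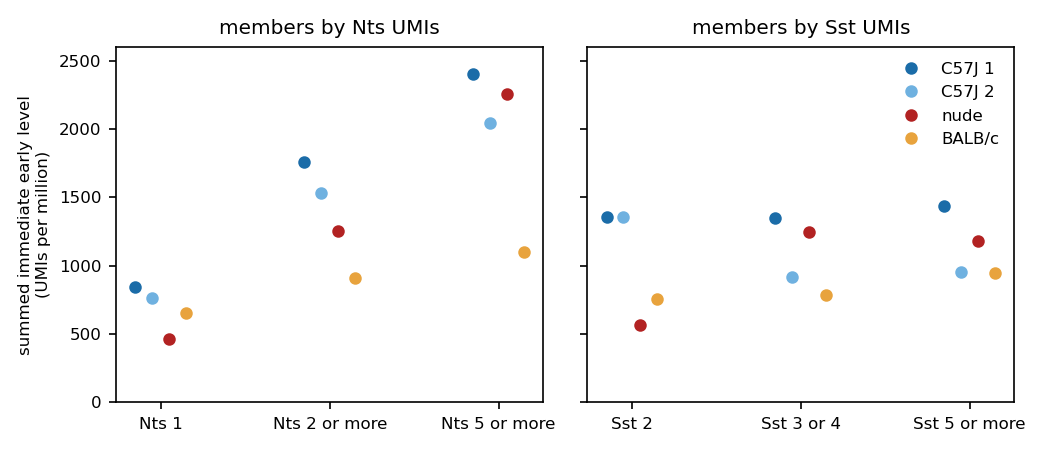
Summed level of the 12 immediate early genes in CPM among members classed by their Nts UMIs (left) and by their Sst UMIs (right), with 1 point per library. The class of 2 or more Nts UMIs includes that of 5 or more. The level is higher at more Nts UMIs in each library, from 460 to 843 at 1 UMI and from 1099 to 2400 at 5 or more.

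Outside the list, Nptx2, a secreted pentraxin that clusters glutamate receptors, was at 8.19, 10.6, 6.89 and 5.77 CPM against 0.853, 0.825, 0.598 and 1.39 CPM in neither nuclei (2.95 ± 0.39), and it had the largest rise of the genes named against Nts-only nuclei (2.98). Egr2 was at 16.4, 12.4, 13.8 and 17.9 CPM against 1.57, 1.86, 1.32 and 2.89 CPM (3.06 ± 0.28). Dusp5 (2.46) and Dusp4 (1.67), phosphatases that switch off MAP kinases, were higher than in neither nuclei, as they were against Sst-only (1.15 and 1.78) and Nts-only nuclei (2.62 and 1.22). Inhba, which encodes the activin subunit, had the largest rise of the genes named against Sst-only nuclei (2.04 ± 0.18) and differed by strain, as described below. The largest rises against neither nuclei also included Chodl (2.90), which marks a group of long-range Sst neurons in cortex, the kinase regulator Irak3 (2.98), the desmosome gene Dsp (3.33) and Nmrk2 (2.99), a kinase of the NAD pathway. The last 3 were each below 6 CPM in all libraries.

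A noncoding transcript, 1700016P03Rik, was singled out after its values were seen because it spans the genes of miR-132 and miR-212, which are known to be induced by activity through CREB. It lies on chromosome 11 (75172560 to 75177633, plus strand, GENCODE vM21). The mature sequences, from RefSeq on GRCm38.p6 with the seed (bases 2 to 8) in capitals, share the seed AACAGUC.

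mmu-miR-132-3p, chr11:75173723-75173744, plus strand: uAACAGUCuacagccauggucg

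mmu-miR-212-3p, chr11:75173443-75173464, plus strand: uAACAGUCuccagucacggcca

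The host transcript was at 327, 173, 255 and 209 CPM in the members, 86.2, 63.4, 84.1 and 93.7 CPM in Sst-only nuclei, 89.5, 57.3, 59.4 and 58.8 CPM in Nts-only nuclei and 53.1, 28.4, 34.1 and 43.9 CPM in neither nuclei. The members were above the other sets in every library, with log2 fold changes of 2.64 ± 0.09, 1.57 ± 0.10 and 1.93 ± 0.09 against neither, Sst-only and Nts-only nuclei. The levels of the mature miRNAs were not measured.

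Members also carried more of several other peptide precursors. Besides Sst and Nts, 16 genes of the neuropeptide list were tested against neither nuclei, and 6 were higher and 1 lower (4.2% and 5.64% over all genes tested). Against Sst-only nuclei 3 of 6 tested were higher (2.71% over all genes), and against Nts-only nuclei 5 of 9 (3.58%), with none lower in either. The count of 3 against Sst-only nuclei was 1 without nude, 2 without each other library, and 1 with DESeq2, without the block or at 6000 UMIs, where 3 genes were tested. Against Nts-only nuclei it was 3 of 4 at 6000 UMIs and with matched nuclei. Cartpt, the precursor of the feeding-related CART peptides, was at 47.9, 26.5, 51.0 and 55.6 CPM against 9.27, 9.07, 7.92 and 8.97 CPM in neither nuclei (2.50 ± 0.16), 12.8, 20.6, 10.7 and 20.1 CPM in Sst-only and 13.8, 13.1, 11.3 and 12.3 CPM in Nts-only nuclei. Its members did not overlap with any other set. Crh, the stress peptide corticotropin-releasing hormone, was at 8.19, 1.77, 6.89 and 9.11 CPM against 1.01, 1.27, 0.772 and 1.41 CPM (2.76 ± 0.37), with C57J 2 near the level of the neither nuclei. Penk, the enkephalin precursor, was at 59.9, 28.2, 55.2 and 43.1 CPM against 21.1, 14.9, 11.9 and 18.3 CPM (1.55 ± 0.15), and Pnoc, the nociceptin precursor, at 18.3, 17.7, 29.0 and 50.7 CPM against 10.8, 10.4, 18.1 and 20.4 CPM (1.10 ± 0.16).

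Npy differed between the libraries. It was at 13.9, 1.77, 4.14 and 15.5 CPM in the members and 15.8, 9.17, 13.6 and 21.1 CPM in Sst-only nuclei, a difference that was not called (-0.50 ± 0.23), but at 2.32, 1.90, 2.58 and 2.91 CPM in Nts-only and 2.24, 3.30, 2.89 and 4.09 CPM in neither nuclei (2.16 ± 0.33 and 1.86 ± 0.31). In C57J 2 the members lay below all 3 other sets, and in nude they lay nearer to neither than to Sst-only nuclei. Cbln4, a secreted synapse organiser, was higher than in neither nuclei (1.10 ± 0.33), and Tac2, at 1 UMI in all members, was lower (-3.15 ± 1.04). Trh and Ucn3 were at 0 in all members.

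Of 17 genes for the dense-core vesicle and for peptide processing, 7 were higher and 3 lower than in neither nuclei (4.2% and 5.64% over all genes tested). The granin-like cargo genes Chga, Vgf, Scg2 and Chgb were higher, and Scg3 (-0.10), Scg5 (-0.14) and Pcsk1n (-0.41) were not called. Chga (chromogranin A) was at 205, 162, 174 and 133 CPM against 42.5, 41.8, 35.4 and 42.1 CPM (2.10 ± 0.09, adjusted p = 3.62e-22), Vgf at 131, 68.9, 117 and 186 CPM against 57.2, 34.4, 42.6 and 57.8 CPM (1.48 ± 0.10) and Scg2 at 68.1, 74.1, 82.7 and 105 CPM against 35.3, 25.7, 32.1 and 45.3 CPM (1.30 ± 0.11), while Chgb rose by less (0.66 ± 0.11). Members were above neither nuclei in every library for all 4. Ptprn, a membrane protein of the vesicle, was at 453, 231, 335 and 434 CPM against 230.4, 172, 170.4 and 193 CPM (0.99 ± 0.09). The enzymes split. The proconvertases Pcsk5 (1.41 ± 0.10) and Pcsk1 (0.69 ± 0.17) were higher, but Pcsk2 (-0.74 ± 0.09), the amidating enzyme Pam (-0.98 ± 0.08) and the vesicle priming factor Cadps2 (-0.92 ± 0.10) were lower. Against Sst-only nuclei 5 of the 17 were higher and 2 lower (2.71% and 2.46% over all genes), and against Nts-only nuclei 5 were higher and 3 lower (3.58% and 4.12%). At 6000 UMIs 3 were higher than in Sst-only nuclei, and without nude 1 was lower.

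The same letters were searched before the genes of both lists. Of the 14 genes of the dense-core list with a RefSeq promoter, 3 (Chgb, Scg2 and Pcsk1, 21.4%) held TGACGTCA, against 478 of 27025 genes in the table (1.77%). Of 19 genes of the neuropeptide list with a promoter 2 held it (10.5%), Sst and Cartpt. TGACNTCA stood before 4 of these 19 (21.1%), Sst, Nts, Cartpt and Trh, and before 3 of the 14, against 8.55% of genes. Both shares of the neuropeptide list include matches of Sst or Nts, which prompted the search. Trh had no UMI in any member. Cartpt and these 3 are shown because the members carried more of each, and they were chosen after the match was seen. Positions are again counted from the RefSeq start, and by GENCODE the Cartpt stretch lies inside the gene.

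Cartpt, chr13:99900777-99900806, minus strand, first base at -112: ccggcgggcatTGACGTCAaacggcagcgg

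Scg2, chr1:79440076-79440105, minus strand, first base at -68: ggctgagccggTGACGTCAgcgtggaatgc

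Pcsk1, chr13:75089768-75089797, plus strand, first base at -78: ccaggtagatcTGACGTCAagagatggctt

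Chgb, chr2:132781559-132781588, plus strand, first base at -72: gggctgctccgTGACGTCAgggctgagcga

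Receptors showed which signals the members may receive as far as transcripts tell. Of 32 neuropeptide receptor genes tested against neither nuclei 5 were higher and 9 lower (4.2% and 5.64% over all genes tested). At 6000 UMIs 3 were higher and 3 lower of 28, and without BALB/c 5 were lower. Galr1, a receptor for galanin that lowers excitability, was at 37.8, 33.5, 56.5 and 64.7 CPM against 5.05, 4.86, 4.66 and 8.84 CPM (3.10 ± 0.17, adjusted p = 1.21e-19), 12.5, 9.93, 3.40 and 20.7 CPM in Sst-only and 8.33, 5.23, 10.5 and 6.83 CPM in Nts-only nuclei. It was the receptor with the largest rise in all 3 comparisons and was above every other set in each library. Of the receptors for the members' own peptides, Sstr2 was at 13.2, 21.2, 11.03 and 21.9 CPM against 4.84, 5.51, 5.60 and 5.78 CPM (1.75 ± 0.22). Sstr1 (0.65), Sstr3 (0.20) and Sstr5 (1.06) were not called, and Sstr4, at 0, 1.77, 0 and 0 CPM, was too low to test. The neurotensin receptor Ntsr2 was lower (13.9, 5.30, 6.89 and 4.25 CPM against 22.5, 13.6, 11.6 and 13.7 CPM, -1.04 ± 0.23), whereas Ntsr1 (-1.35) and the sorting receptor Sort1 (0.17) were not called.

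Tacr3, the neurokinin B receptor (1.29 ± 0.22), Hcrtr2, an orexin receptor (1.01 ± 0.15), and Glp1r, the receptor of the gut peptide GLP-1 (0.81 ± 0.15), were higher as well, and Glp1r was at the level of Sst-only nuclei (-0.07 ± 0.17, not called). At 6000 UMIs, where both depth and the chosen nuclei differ, the Glp1r change was -0.021 against neither and -0.11 against Nts-only nuclei. With 2000 UMIs of each of the same nuclei it was 0.59 ± 0.34 and 0.52 ± 0.35, neither of them called. Among lower receptors were Pth2r (-2.51 ± 0.35), Calcr, the calcitonin receptor (-1.70 ± 0.38), Oprd1 (-1.43 ± 0.50), Crhr2 (-1.19 ± 0.26) and Oprm1, the mu opioid receptor (-0.98 ± 0.14).

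Of 22 monoamine and acetylcholine receptors 4 were higher and 7 lower than in neither nuclei (4.2% and 5.64% over all genes tested), with 2 higher without BALB/c or without the block. Serotonin receptor genes were called in both directions, and Htr1a (-0.70), Htr1b (0.09), Htr1d (-2.02) and Htr4 (0.10) were not called. Htr2c was at 239, 242, 199 and 159 CPM against 498, 504, 607 and 539.6 CPM (-1.32 ± 0.09), and Htr7 (-1.08 ± 0.11) and Htr1f (-1.07 ± 0.10) were lower too. Htr2a, in contrast, was at 15.8, 12.4, 30.3 and 45.6 CPM against 12.2, 10.3, 14.2 and 19.0 CPM (1.02 ± 0.17) and 7.74, 3.82, 3.89 and 13.3 CPM in Sst-only nuclei (1.81 ± 0.22), though in both C57J libraries it differed little from the neither nuclei, and without BALB/c the change against these fell to 0.65 and was not called. Adra1a (1.02 ± 0.12) and Drd2 (0.92 ± 0.11) were higher, and Drd1 (-1.26 ± 0.37) and Adra1b (-2.84 ± 0.58), at 4 UMIs in all members, were lower.

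Glutamate receptors, ion channels and the GABA machinery were read next, beside backgrounds of 4.2% called higher and 5.64% called lower. Of 24 glutamate receptor genes 5 were lower, among them Grik1 (151, 98.9, 150.3 and 98.1 CPM against 385, 451, 392 and 427 CPM, -1.67 ± 0.10) and Grik4 (-0.98), and Grin2a (0.67) and Gria3 (0.63) were higher. Of 30 potassium channel genes 2 were higher, Kcna4 (0.77) and Kcnc2 (0.66), and 7 lower, led by Kcnk2 (-1.26) and Kcnt2 (-1.05). Of 24 calcium, sodium, HCN and Trpc channel genes 5 were lower, led by Trpc7 (-1.53) and Cacna2d3 (-1.50), and Trpc6 (0.54) alone was higher. The shares called higher in these 3 lists, 1 or 2 genes each, were near the background and are no result about the lists. The counts of lower genes fell to 3 for glutamate receptors without C57J 1 or without the block, and to 4 for potassium channels without the block. None of the 5 GABA transmission genes tested was called in any of the 3 comparisons. Calb2 (-1.23) and Calb1 (-1.20), calcium buffers used to class GABAergic neurons, were lower.

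**Figure D4:**
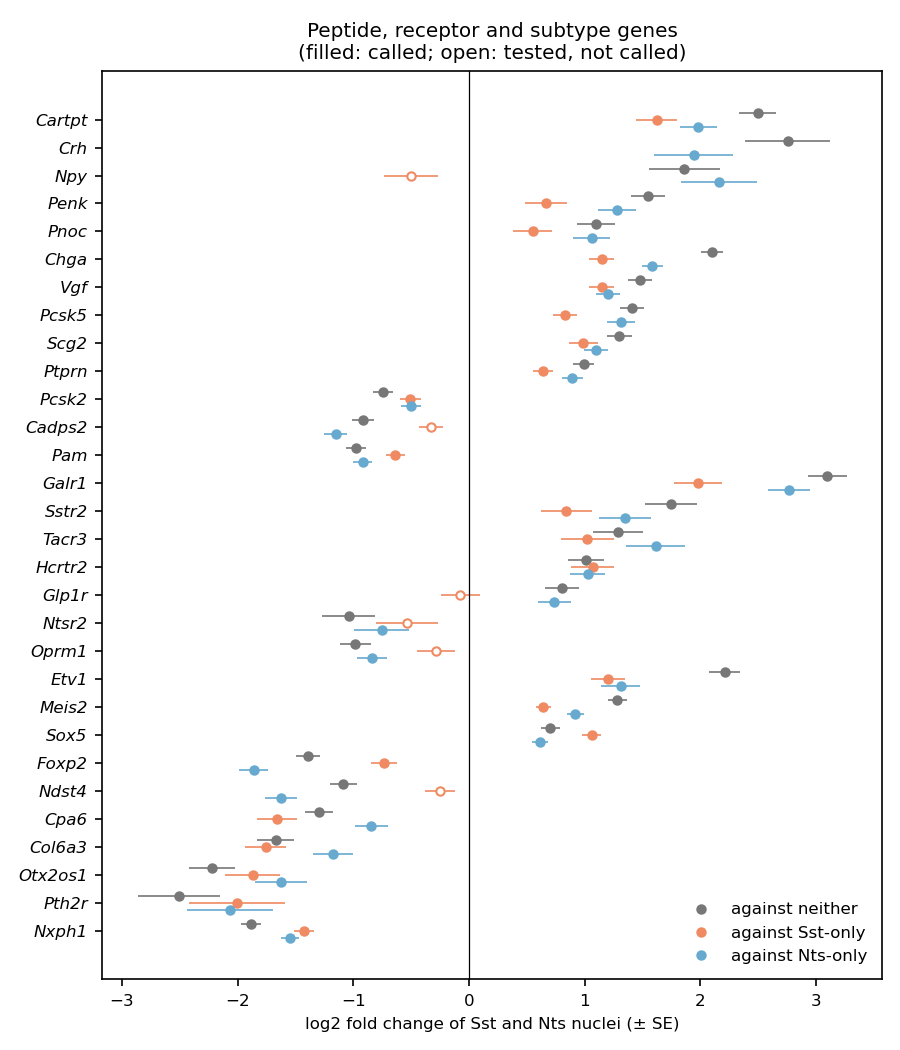
Log2 fold change of the members (Sst and Nts nuclei) with its standard error for genes of peptides and vesicles (Cartpt to Pam), receptors (Galr1 to Oprm1), transcription factors and LS subtypes (Etv1 to Pth2r) and Nxph1, against neither, Sst-only and Nts-only nuclei. Filled points were called and open points were tested without a call, and a gene with no point was not tested in that comparison. Galr1 lies highest, at 3.10, 1.98 and 2.77.

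Whether the members matched a known LS subtype was examined with 23 genes that the study uses to mark LS neuron subclusters. The study chose this list on these same libraries, so its counts are not independent evidence. Of the 23, 2 were higher and 18 lower in the members than in neither nuclei (background 4.2% and 5.64%). Of 21 tested against Sst-only nuclei 2 were higher and 10 lower (background 2.71% and 2.46%). Of 23 tested against Nts-only nuclei 2 were higher and 17 lower (background 3.58% and 4.12%). The 10 lower were 5 without the block and 3 of 12 at 6000 UMIs, and the 17 were 9 without the block, 11 with DESeq2 and 8 of 18 at 6000 UMIs. The median log2 fold changes were -1.19, -0.73 and -1.03. The genes that were higher in all 3 comparisons were Chga, above, and Etv1, a transcription factor of the ETS family, at 90.7, 45.9, 63.4 and 107 CPM against 18.1, 16.9, 20.3 and 19.1 CPM in neither (2.21 ± 0.13), 28.6, 42.0, 38.4 and 43.1 CPM in Sst-only and 38.2, 45.4, 32.7 and 29.8 CPM in Nts-only nuclei. In C57J 2 the members' Etv1 was about that of both the Sst-only and the Nts-only nuclei. When both sets had to hold 5 Sst UMIs, the Etv1 change against Sst-only nuclei was -0.14 and none of the 3 LS subtype genes tested was called.

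Foxp2, the marker of rostral LS neurons, was at 119, 117, 85.5 and 48.3 CPM in the members, 415, 320.3, 242 and 291 CPM in Nts-only nuclei (-1.86 ± 0.13) and 311, 231, 191 and 199 CPM in neither nuclei (-1.39 ± 0.11). The members were lowest in each library, below Sst-only nuclei too (-0.73 ± 0.12). Ndst4, a heparan sulfate enzyme that marks some of the same neurons, was lower than in Nts-only nuclei (-1.62 ± 0.14) and not called against Sst-only nuclei (-0.25 ± 0.13). Cpa6 (-1.66 ± 0.17) and Col6a3 (-1.76 ± 0.17), which mark dorsal LS neurons, were lower than in Sst-only nuclei, where Col6a3 stood at 50.2, 41.2, 53.0 and 41.0 CPM against 16.4, 10.6, 9.65 and 12.5 CPM in the members. Col15a1 was lower than in Sst-only nuclei (-1.13) and not called against Nts-only nuclei (-0.02). Met (-1.23), Ddr2 (-1.03), Otx2os1 (-2.22), Dach2 (-1.06) and Sema3a (-1.01) were all lower than in neither nuclei.

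Of 39 transcription factor genes tested 5 were higher and 20 lower than in neither nuclei (4.2% and 5.64% over all genes tested), with 9 lower at 6000 UMIs. Meis2, a homeobox factor of striatal and septal lineages, was at 1665, 1644, 1802 and 1931 CPM against 830.2, 780.5, 759 and 664 CPM (1.28 ± 0.08), and Sox5 at 568, 524, 534 and 447 CPM against 294, 326, 357 and 352 CPM (0.70 ± 0.08). Tox (0.96) and Bcl11b (0.64) were the others beside Etv1. Meis2, Sox5, Tox and Etv1 were higher in all 3 comparisons, but at 5 Sst UMIs Tox was at -0.21 against Sst-only nuclei. Lower factors included Nr2f1 (-3.88, 1 UMI in all members), Ebf2 (-3.16) and Ebf3 (-3.35), Otx2 (-2.02), Mef2c (56.1, 45.9, 66.2 and 61.7 CPM against 155, 156, 152 and 198 CPM, -1.46), Tshz1 (-1.33) and Nfib (-0.99). Of 18 genes called lower that had no UMI in any member, Atp8b1 had the highest level in neither nuclei, 2.12 to 3.03 CPM, and was at least 5.19-fold lower when 3 counts over all members are taken as the floor. Syndig1l (at least 4.03-fold), Mecom (at least 3.34-fold), Ccdc170 (at least 3.04-fold), Slc41a3 and Agbl2 (each at least 2.38-fold), Eomes (at least 2.36-fold), Fezf2 (at least 2.35-fold), Adamts5 (at least 2.27-fold) and Apoh (at least 2.13-fold) were the next of these among named genes.

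Of 31 axon guidance genes 9 were lower and 3 higher than in neither nuclei (5.64% and 4.2% over all genes tested), 19 were not called, and the median log2 fold change of the list was -0.15. At 2 or more Nts UMIs 5 were higher. Robo1, the Slit receptor, was at 607, 784, 808 and 471 CPM against 1608, 1498, 1526 and 1255 CPM (-1.11 ± 0.08), Sema3c was lower (-1.26 ± 0.21), and Ntng1 was higher (0.61 ± 0.09). Among the 10 largest decreases against Sst-only nuclei were Otof (-2.82), Lypd6b (-2.10), Sema3e (-2.03), Scube1 (-1.88), Slc26a4 (-1.85), Hmcn1 (-1.81) and Eya4 (-1.73), and the largest rises included Cdc14a (1.67) and Lbh (1.47). Against Nts-only nuclei the largest decreases included Ranbp3l (-2.63), Sfta3-ps (-2.35), Frem1 (-2.20), Tfeb (-2.15) and Adamts16 (-2.13), and Kdm6bos was among the rises (2.43).

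Of 8 genes that the study discusses for fear, memory or anxiety, Synpo (0.89 ± 0.20), Glp1r and Ptchd1 (0.58 ± 0.11) were higher in the members than in neither nuclei (4.2% over all genes tested), Glp1r with the limit given above, and Tafa2, at 166, 109, 174 and 227 CPM against 376, 356, 448 and 504 CPM, was lower (-1.22 ± 0.09, 5.64% over all genes). Grm7 (0.04), Ndrg4 (-0.08), Ndn (-0.33) and Cnr1 (0.40) were not called. The study chose these genes on the same libraries, so their count is not independent evidence. Against Sst-only nuclei none of the 8 was called, and against Nts-only nuclei 4 were higher and 1 lower (3.58% and 4.12% over all genes). The count of higher genes against neither nuclei was 1 without BALB/c or the block and 0 at 6000 UMIs. Against Nts-only nuclei it was 2 without BALB/c, C57J 1 or the block and at 2 or more Nts UMIs, and 0 at 6000 UMIs.

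Detection of single genes varied among the members. Etv1 was detected in 153 of 476 members and Galr1 in 131. Galr1 was found in 10.4%, 14.3%, 20.0% and 16.9% of the 48, 14, 20 and 71 members with Etv1, or 5, 2, 4 and 12 nuclei. Among members without Etv1 it was found in 25.8%, 18.6%, 32.1% and 44.9%. The share was lower with Etv1 in each library, but in C57J 2 the shares were close and rested on few nuclei. Median depth was 10162.5, 9141.5, 8746 and 16021 UMIs with Etv1 and 9363, 8824, 8869.5 and 16769 UMIs without. This pair was chosen out of many marker pairs after its values were seen and carries no test.

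Finally, the C57J members were compared with the members of nude and BALB/c. Here 37 of 9631 genes tested (0.384%) were called, 14 higher and 23 lower on the BALB/c background. Of the 37, 14 were still called without C57J 1, 16 without BALB/c, 32 without C57J 2 and 37 without nude. In this comparison of 2 libraries against 2, batch 1 holds a single C57J library, so batch and background cannot be told apart in full, and nude and BALB/c alone have no replicate. No gene of the lists above was called. The immediate early list had a median log2 fold change of -0.47, beside -0.01 over all genes tested, and both of its sums on the BALB/c background lay below both C57J sums, as given above. Of that list Nr4a2 had the lowest adjusted p (-2.40 ± 0.52, adjusted p = 0.0601). Grm7 (-0.31), Glp1r (-1.01), Ndrg4 (-0.67), Synpo (0.43) and Tafa2 (0.56) were not called in the members.

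Of the 37 genes, 26 (70.3%) were also called on the same side in neither nuclei, where 323 of all 18872 genes tested were called. These 26 are 8.05% of the 323. Both tests used the same 4 libraries, so the overlap is not independent evidence. Cfap54, a gene of motile cilia, was at 68.7, 93.6, 277 and 267 CPM in the members and 69.3, 77.2, 256 and 256 CPM in neither nuclei (1.83 ± 0.20 in the members). Banf2 was at 8.82, 10.6, 0 and 0 CPM in the members and 10.4, 8.81, 0.0249 and 0 CPM in neither nuclei, with no overlap between backgrounds in either set. Fggy (-2.72), Rec8 (-5.21), Rnf17 (-5.06), Muc3a (-5.00), Rpl29 (-3.28), Mid1 (-2.74) and Acaa1a (-2.29) were lower, and Acot12 (4.52), Fbn2 (1.79), Rnf121 (1.77) and Zkscan1 (1.37) higher, in the members of the BALB/c background. Lvrn, at 0, 0, 12.4 and 9.11 CPM in the members, and Banf2 had no UMI in the members of one background, so no fold is given for them.

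Whether the strain difference itself differed between members and neither nuclei was tested as an interaction, and 45 of 17886 genes (0.252%) were called. Of these, 9, 7, 42 and 3 were still called without C57J 1, C57J 2, nude and BALB/c. Inhba was at 18.3, 31.8, 77.2 and 91.1 CPM in the members and 8.76, 17.5, 14.9 and 12.2 CPM in neither nuclei. It rose on the BALB/c background in the members (1.95 ± 0.29, adjusted p = 0.00505) and was flat in neither nuclei (0.06), and the difference was 1.80 ± 0.28 (adjusted p = 1.83e-06). Mlip, a lamin-interacting protein, was at 29.0, 15.9, 101 and 106 CPM in the members and 16.7, 14.1, 22.5 and 17.1 CPM in neither nuclei. Its rise on the BALB/c background was smaller in neither nuclei (0.37) by the interaction test (difference 1.88 ± 0.26, adjusted p = 1.51e-08). Calcrl, the receptor chain for CGRP and adrenomedullin, went the other way, from 32.8, 35.3, 8.27 and 6.38 CPM in the members to 6.06, 5.71, 6.25 and 7.28 CPM in neither nuclei (difference -2.46 ± 0.43, adjusted p = 5.50e-05), so the C57J members stood above all other values. Stk31 was at 55.5, 10.6, 0 and 0.608 CPM against 8.85, 3.12, 1.57 and 1.88 CPM (difference -4.24 ± 0.84), most of it in C57J 1. Cpa6, of the LS subtype genes, was among those called (-0.95), but the call was lost with DESeq2 and without C57J 1, C57J 2 or BALB/c, and the difference was 0.75 at 6000 UMIs. Fos was also called, with a smaller rise over neither nuclei on the BALB/c background (difference -1.27 ± 0.30, adjusted p = 0.0196). The Fos call was lost with DESeq2, with neither nuclei matched on UMIs, after thinning, at 2 or more Nts or 5 or more Sst UMIs, and without C57J 2 or BALB/c. The Inhba, Calcrl and Stk31 calls were lost with DESeq2 and without BALB/c, that of Calcrl also with matched nuclei, and that of Stk31 also without C57J 1 and at 2 or more Nts UMIs. At 5 or more Sst UMIs and at 6000 UMIs Inhba and Mlip were still called and Calcrl and Stk31 were not, and at 2000 UMIs none of them was called.

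**Figure D5:**
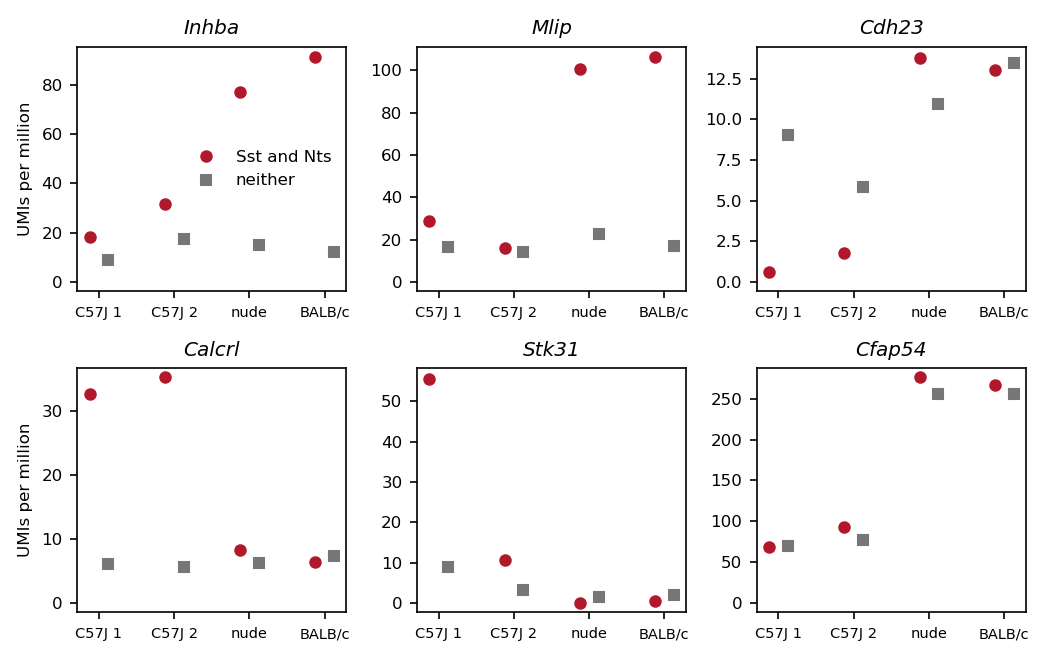
Levels of 6 genes in CPM (linear axes that include 0) in members (circles) and neither nuclei (squares) of each library. Inhba and Mlip are higher in nude and BALB/c in the members and differ less by strain in neither nuclei. Calcrl and Stk31 are higher in the members of C57J, and Cdh23 is low in the members of C57J. Cfap54 is higher in nude and BALB/c in both sets.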

How the data were processed

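Nuclei were profiled by droplet-based 3' single-nucleus RNA sequencing. The UMI counts per gene and nucleus were deposited by the authors as matrices made with Cell Ranger 7.0.1 on mm10, per the submitters' processing notes; whether intronic reads were counted is not given in the sources used here. The study removed doublets before its own analysis, but the matrices still hold them, so they were predicted here and their removal was tried as an alternative.

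Raw UMIs were summed per library over each set of nuclei, and the sums were tested with edgeR 4.0.16 (quasi-likelihood test, TMM scaling, filterByExpr) in R 4.3.3, with the library as a block within libraries. The 7 genes of the rule were left out of the tests of the members, and Sst and Nts were tested in the LS gate alone. The members and the 27 gene lists were chosen with earlier results of these data known. Named genes were, for each test, the 10 largest called changes in each direction that lay on the called side in every library, up to 6 called genes of each list, the genes of the rule, the study's LS subtype genes, its fear, memory or anxiety genes and the receptors of both peptides. The genes 1700016P03Rik, Meis2, Tox, Bcl11b and others outside these limits were named after their values were seen. Some genes that these rules name are not reported here. The nuclei of a library came from 3 pooled mice, so p-values measure the spread between 4 libraries. The strain test and the test against neither nuclei were tried on simulated counts with known changes, drawn with the spread fitted to these sums. The Sst-only, Nts-only and interaction tests were not simulated. Alternatives were DESeq2 1.42.0, no filter, predicted doublets removed, thinning, other limits on Sst and Nts, no block, comparison nuclei matched on UMIs, and leaving out each library. Python 3.11.15 with SciPy 1.17.1 was used for counts, intervals and the permutation test.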

Additional observations from a re-analysis of the deposited data

Results flagged for a closer look

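The change from C57J to the BALB/c background differed between members and neither nuclei for 45 genes by the interaction test (edgeR, adjusted p below 0.05). Among those named here, the change was more positive in the members for Cdh23 (log2 difference 3.25), Mlip (1.88), Inhba (1.80), Wfs1 (1.26), Arl6ip5 (1.14), Car2 (1.13), Pxdn (1.10), Rnd3 (1.07), Sh2d5 (1.05) and Alk (1.02). It was more negative for Stk31 (-4.24), Pde11a (-2.89), Calcrl (-2.46), Kirrel (-1.75), Sulf1 (-1.48), Fmn1 (-1.42), Vav3 (-1.31), Fos (-1.27) and Sox11 (-1.16). Cdh23 rested on 1 UMI in the members of each C57J library, and its call was lost without a filter, without predicted doublets and when any library except nude was left out. The Arl6ip5 and Sox11 calls were likewise lost without a filter and without predicted doublets. Those of Kirrel, Sulf1 and Sh2d5 were lost at 6000 UMIs, at 2 or more Nts UMIs and with matched nuclei. Pde11a rested on 11, 11, 0 and 5 member UMIs. Its call and those of Car2, Pxdn and Vav3 were lost at 6000 UMIs and with matched nuclei, that of Pde11a also at 2 or more Nts UMIs. The calls of Alk and Fmn1 were lost at 5 or more Sst UMIs, that of Fmn1 also at 6000 UMIs. DESeq2 called 1 gene, Mlip, and with neither nuclei matched on UMIs 8 genes were called.

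Wfs1, an endoplasmic reticulum protein, was at 41.6, 21.2, 62.1 and 76.9 CPM in the members and 20.4, 14.3, 15.8 and 17.1 CPM in neither nuclei. Rnd3 was at 25.8, 24.7, 85.5 and 46.8 CPM against 17.2, 25.1, 21.6 and 23.5 CPM, with nude the highest. Both calls were lost without C57J 1, without C57J 2, at 6000 UMIs, at 2 or more Nts UMIs and at 5 or more Sst UMIs, that of Wfs1 also without BALB/c, and that of Rnd3 also without nude, without a filter and with matched nuclei.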

How the results depend on the processing

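No paired analysis was possible because the strain groups share fewer than 2 replicate numbers; within libraries the library was the block, and without the replicate block 1020, 232 and 542 genes were called against neither, Sst-only and Nts-only nuclei. The counts for these 3 comparisons, then for the strain test and the interaction, were 1092, 278, 572, 14 and 1 with DESeq2, 138, 3, 13, 0 and 0 with nuclei thinned to 2000 UMIs before they were chosen (16 members, too few to read), 1024, 85, 755, 9 and 2 at 5 or more Sst UMIs, 829, 248, 427, 15 and 9 after thinning to 6000 UMIs, and 804, 237, 462, 17 and 1 with 2000 UMIs of each chosen nucleus. Without a filter the strain test called 158 genes. At 2 or more Nts UMIs the strain test and interaction called 12 and 27, with matched nuclei the interaction called 8, and by adjusted p alone 880 and 1491 genes were called against Sst-only and Nts-only nuclei. Thinning to 6000 UMIs, 2 or more Nts UMIs, matching and 2000 UMIs of each nucleus were chosen after seeing the data. Leaving out 1 library gave 1089 to 1645, 450 to 547, 589 to 1010, 36 to 219 (219 without nude, 149 without C57J 2) and 7 to 145 genes (145 without nude, 7 without C57J 2, 13 without C57J 1, 11 without BALB/c), with 1089 and 589 without BALB/c. A lone library of a background was then assumed to vary like the others.

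The log2 ratio of the members' share, 0.63, ranged from -0.55 (without BALB/c) to 1.27 when 1 library was left out, and from 0.385 (6000 UMIs) to 1.39 (5 or more Sst UMIs) under the other alternatives. In the LS gate the change ranged from -0.043 (without C57J 2) to 0.28 for Sst and from -0.078 (without BALB/c) to 0.34 for Nts, and was -0.027 for Nts without C57J 2. Single genes changed direction as follows, and the cause was not tested. With nuclei chosen at 2000 UMIs the log2 fold change against neither nuclei was -0.29 for Dgkg, -0.022 for Ptprn, -0.17 for Grin2a, -0.67 for Gria3, -0.53 for Kcnc2, -0.19 for Sox5, -1.04 for Necab1, -0.090 for Meis2, -0.57 for Bcl11b and -0.49 for Tox, for Tox -0.37 against Sst-only and -0.40 against Nts-only nuclei, and against the latter -0.10 for Necab1 and -0.35 for Bcl11b. At 6000 UMIs Glp1r was at -0.021 against neither and -0.11 against Nts-only nuclei, Ntsr2 at 0.083 against Nts-only nuclei, and the interaction of Cpa6 at 0.75. At 5 or more Sst UMIs Etv1 (-0.14), Drd2 (-0.035), Tox (-0.21) and Npas4 (-0.32) were lower in value than Sst-only nuclei. Values resting on 3 or fewer member UMIs under an alternative were left out, 126 of them at 2000 UMIs. Depth limits single peptide UMIs, which are at background.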

Other observations

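A pair of further groups were examined in the members. Of 9 calcium-binding genes 2 were higher and 4 lower than in neither nuclei (4.2% and 5.64% over all genes tested). Necab1 (0.56 ± 0.09) and Hpcal4 (0.71 ± 0.13) were higher, while Ncald, at 212, 187, 201 and 255 CPM in the members and 355, 346, 365 and 428 CPM in neither nuclei, was lower (-0.73 ± 0.08), as were Cabp1 (-1.10 ± 0.23) and, as described above, Calb1 and Calb2. At 6000 UMIs Necab1 and Ncald alone of 8 genes tested were called. Of 7 endocannabinoid genes 1 was called against neither nuclei, where 5.64% of all genes were lower, which is no result about the list. This was Mgll, which breaks down 2-arachidonoylglycerol (-0.86 ± 0.14), and the receptor gene Cnr1 was higher than in Nts-only nuclei (0.55 ± 0.10) but was not called against neither nuclei (0.40 ± 0.10).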
